A study of Mus musculus with 12 samples.

Results

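The response of the wild-type mouse kidney to angiotensin II was read from 6 of the 12 arrays of the series, the 3 labelled as wild type after angiotensin II infusion and the 3 labelled as wild type at baseline. All mice were males of 2.5 months from an F1 cross, given in the labels as F1 (C57BL6 X 129/SvEv), and each array held the total RNA of 1 snap-frozen kidney. The baseline mice were kept on a diet labelled NS, and the infused mice received angiotensin II at 1 ug/kg/min for 2 days on the same diet. The labels name no infusion in the baseline mice, so angiotensin II and the infusion procedure cannot be told apart here. The remaining 6 arrays were from mice without the AT1A receptor (AGTR1A-KO, called KO here) under the same conditions, 3 at baseline and 3 infused, and were used to estimate the spread and to set the response without that receptor beside the wild-type one. The stated purpose of the series was to define the expression patterns that activation of AT1 receptors triggers in the kidney, and the comparison of infused with baseline wild-type kidneys addresses the response of a kidney that has the receptor.

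Angiotensin II is made from angiotensinogen by renin and angiotensin-converting enzyme, and it acts on blood vessels, the adrenal cortex and the tubules of the kidney mainly through AT1 receptors. In the kidney it raises sodium reabsorption, constricts the arterioles of the glomerulus and, with aldosterone, which it releases from the adrenal gland, adjusts channels of the distal nephron. The proximal tubule reabsorbs most filtered salt, glucose, amino acids and phosphate, secretes organic anions and cations, and is the most active site of fatty acid oxidation and gluconeogenesis in the organ. A whole-kidney array reads the RNA of all of these cells together, so that fewer cells of a type and less RNA per cell cannot be told apart.

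The deposited values were read as ratios to the middle value of a probe set across the 12 arrays, since their median lay within 0.002 of 1 in 45099 of 45101 probe sets. They give differences between arrays for a gene but no level, and so levels of different genes are not compared. Without control probes there were 45037 probe sets, and each of 18193 genes was read by 1 of them. A gene is said to rise or fall where its adjusted p was under 0.05 (limma, Benjamini-Hochberg adjustment over all probe sets), changes are given on the log2 scale with the moderated standard error, and n was 3 mice in every group. The spread over probe sets of the log2 ratio was 0.164 to 0.18 (SD) in the baseline arrays and 0.268 to 0.342 in the infused ones. The log2 difference between 3′ and 5′ control probe sets of Actb and Gapdh was taken as a sign of RNA quality. Being made from ratios, it is relative to the 12 arrays and gives no absolute level. The mean of both genes was -0.018 to -0.007 at baseline and 0.036 to 0.067 after infusion. These groups did not overlap (exact permutation test, two-sided, p = 0.1, the smallest that 3 against 3 can give). Actb alone stood at -0.025 to 0.007 at baseline and 0.075 to 0.150 after infusion. For Gapdh the groups overlapped (-0.025 to 0.001 and -0.060 to 0.058). The part of this difference in the results was not tested.

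Infusion was followed by change in a large share of the kidney transcriptome. Of 45037 probe sets 24.1% were called, 4888 as rises (10.9%) and 5988 as falls (13.3%), and of the 18193 genes 1748 rose (9.61%) and 2644 fell (14.5%). Changes of at least 2-fold were fewer, 49 rises (0.269% of genes) and 121 falls (0.665%). Infused and baseline arrays did not overlap for 9.26% of genes called as rises and 14.1% called as falls, both shares of all genes. The median change over all genes was 0.03. The split of calls depended on the scaling: 44.9% of called probe sets rose with the values as deposited and 32.9% after quantile normalization of the ratios, when 595 genes rose (3.27%) and 1622 fell (8.92%). The counts also moved with single arrays, most without baseline replicate 1, when 712 genes rose and 1524 fell. Without infused replicate 3 957 genes rose, and without baseline replicate 2 1090 rose.

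The 4 classes of gene examined differed in the direction of their counts. Of 808 metabolic enzymes 81 rose and 196 fell (24.3%), with a median of -0.05. Of 606 transporters and channels 70 rose (11.6%) and 103 fell (17%), with a median of 0.04. Of 517 transcription factors 73 rose (14.1%) and 37 fell (7.16%), with a median of 0.10, and of 665 secreted proteins 79 rose (11.9%) and 60 fell (9.02%), with a median of 0.11. Of all genes 14.5% fell and 9.61% rose, and these shares are the background for the families and lists below. Falls were thus counted above that share among enzymes and below it among factors and secreted proteins. Among transporters both falls and rises lay slightly above the shares of all genes. After quantile normalization 25 transporters, 42 enzymes, 32 factors and 31 secreted proteins rose, and 33 secreted proteins fell. Leaving out baseline replicate 1 left 31, 49, 34 and 34 rises in the same order, and leaving out infused replicate 3 left 41 rises of transporters, 38 of factors and 44 of secreted proteins. Without baseline replicate 2 46 factors rose and 39 secreted proteins fell. Falls of factors numbered 20 without baseline replicate 1 and 24 without infused replicate 3, and falls of secreted proteins 34 without baseline replicate 1.

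**Figure D1:**
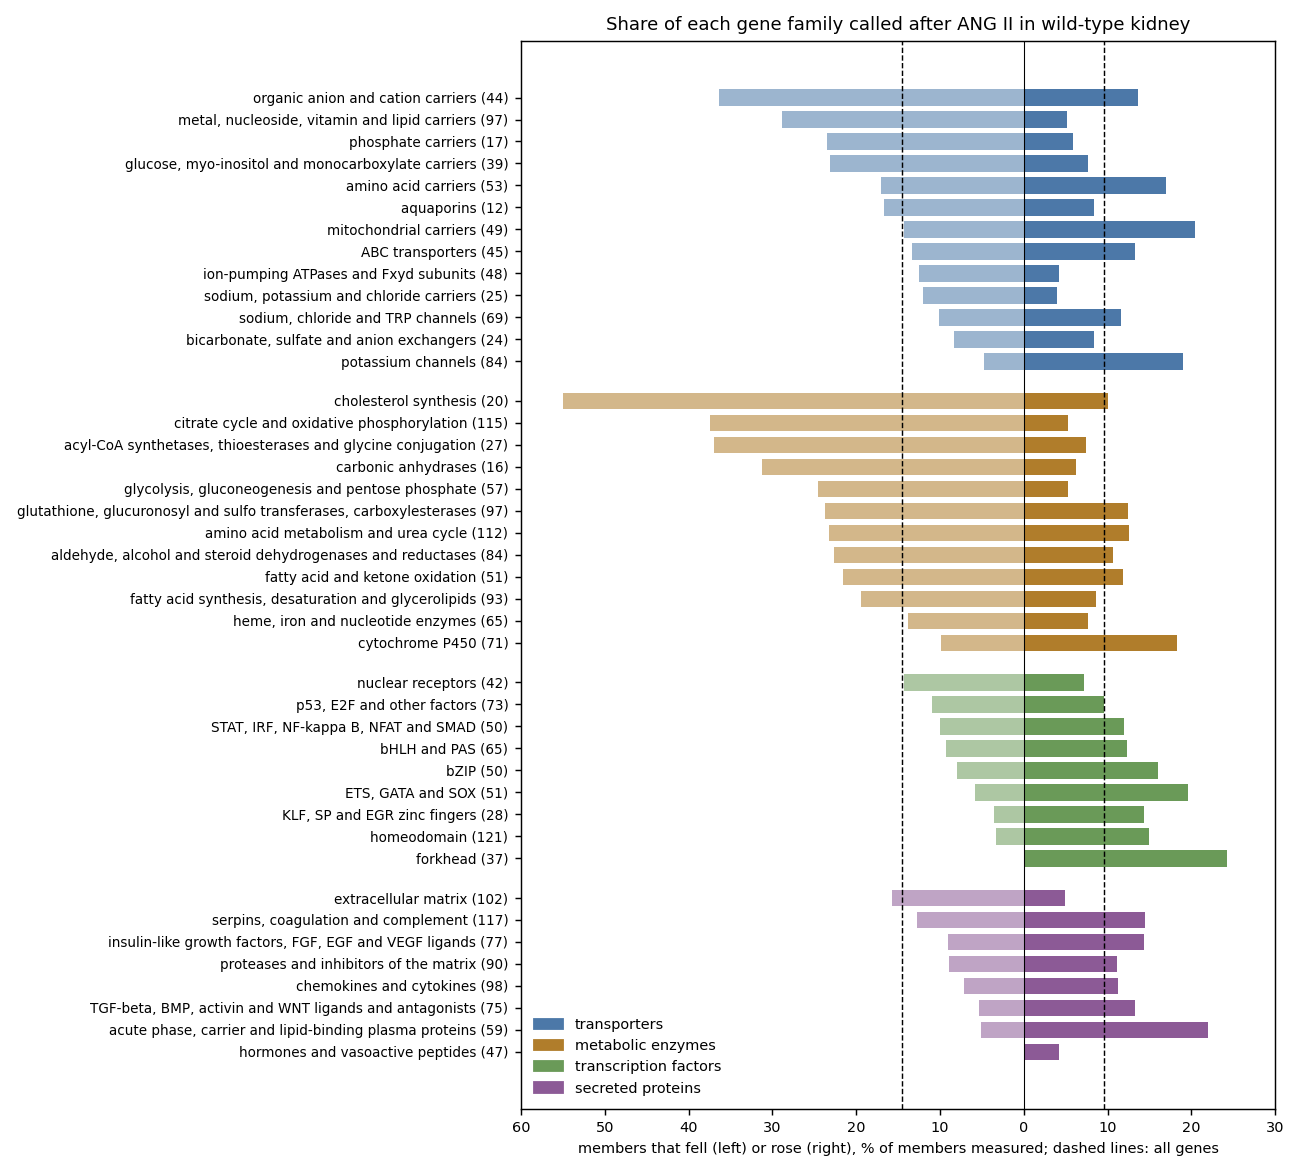
Percent of the measured genes of each family that fell (bars to the left) or rose (bars to the right) in wild-type kidney after angiotensin II infusion, with the number of genes measured, where dashed lines mark the share of all 18193 genes that fell (14.5%) or rose (9.61%). Cholesterol synthesis, with 11 of 20 genes down, and the citrate cycle with oxidative phosphorylation, with 43 of 115 down, reach far to the left, and forkhead factors, with 9 of 37 up and 0 down, reach only to the right.

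Among transporters the organic anion and cation carriers, which take up and secrete drugs, toxins and metabolites across the proximal tubule cell, moved most often downward. Of 44 measured, 16 fell and 6 rose, and 13 fell and 2 rose after quantile normalization. With any 1 of the 6 wild-type arrays left out 13 to 14 fell, while the rises dropped to 2 without baseline replicate 1. Within the Slc22 family 9 of 21 members fell and 3 rose.

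Slco1a1, an uptake carrier for steroid conjugates and bile acids, read 0.98, 1.02 and 1.39 at baseline and 0.223, 0.306 and 0.212 after infusion. Every infused array lay below every baseline array, and the change was -2.19 ± 0.18, 4.58-fold lower (adjusted p = 7.93e-06). In KO mice the change was 0.49, and the responses differed by -2.68 (adjusted p = 3.65e-05). Slc22a7, known as OAT2, an organic anion carrier, read 1.1, 0.913 and 0.621 at baseline and 0.264, 0.26 and 0.201 after infusion. The groups were again apart, with a change of -1.83 ± 0.21 (adjusted p = 8.74e-05) that was -1.12 after quantile normalization. Its relative Slc22a30 read 0.994, 1.01 and 1.07 against 0.221, 0.433 and 0.216, a change of -1.90 ± 0.20 that was -1.21 after that normalization. Slc51a, a subunit of the organic solute carrier that exports bile acids and steroids, read 0.983, 0.802 and 1.22 at baseline and 0.204, 0.31 and 0.17 after infusion. It was 4.47-fold lower (-2.16 ± 0.19, and -1.41 after quantile normalization).

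The main basolateral organic anion carrier of the proximal tubule, Slc22a6 (OAT1), fell by less, 0.66 on the log2 scale, with arrays of 0.967, 0.924 and 1.2 before and 0.635, 0.595 and 0.721 after infusion. The organic cation carrier Slc22a2 (OCT2) changed by -0.90 and by -0.59 after quantile normalization, the carnitine and ergothioneine carrier Slc22a4 by -0.90, the uptake carrier Slco4c1 by -0.84 and the apical exporter Slc47a1 (MATE1) by -0.32. The apical efflux pump Abcc2 (MRP2) fell as well, by 0.81. These uptake and efflux carriers of the secretory path therefore fell in the same kidneys. Against that direction Slc22a26 rose by 0.87. Slc22a8, a further proximal tubule marker, was not called by the probe set that stands for it and rose in the one with the largest spread.

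Other efflux pumps rose. Abca1, which hands cholesterol and phospholipid to apolipoproteins, read 1.21, 0.869 and 1.14 at baseline and 2.65, 2.22 and 2.29 after infusion. It rose 2.25-fold (1.17 ± 0.12, adjusted p = 3.84e-05), with a KO change of -0.29 and a difference between genotypes of 1.46 (adjusted p = 0.000171). The 2 mouse genes for P-glycoprotein, the drug efflux pump, rose together: Abcb1a read 0.995, 0.729 and 1.07 before and 2.23, 1.62 and 1.95 after infusion (1.06 ± 0.16), and Abcb1b read 1.3, 1.15 and 0.98 before and 2.75, 1.75 and 2.54 after (1.02 ± 0.18). Both had groups that did not overlap and responses that differed from KO, by 1.48 and 1.27. Over all 45 ABC transporters 6 rose and 6 fell, so these rises were not a feature of the family.

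Sulfate carriers of the proximal tubule moved in opposite directions. Slc13a1, the sodium-sulfate cotransporter of the proximal brush border, read 0.866, 0.989 and 0.756 at baseline and 2.25, 2.93 and 2.18 after infusion. It had the largest rise of any transporter by the rule used here, 2.81-fold (1.49 ± 0.17, adjusted p = 8.78e-05), and the KO change was 0.10 with a difference of 1.39 (adjusted p = 0.00308). Its other probe set rose by 0.50, with no difference from KO called (0.26, adjusted p = 0.343). Slc26a1, the basolateral exchanger that passes sulfate on to the blood, read 1.58, 1.64 and 1.87 before and 0.818, 0.717 and 0.609 after infusion and was 2.38-fold lower (-1.25 ± 0.11, adjusted p = 1.84e-05). The entry step and the exit step for sulfate were thus measured in opposite directions, each with groups apart. Slc26a6, an apical anion exchanger that carries chloride, formate and oxalate, changed by -0.68.

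Slc34a3, a sodium-phosphate cotransporter of the brush border, read 1.49, 1.41 and 1.47 at baseline and 0.748, 0.796 and 0.741 after infusion. The arrays within a group lay close together, and the change was -0.94 ± 0.11 (adjusted p = 9.36e-05), against 0.83 in KO mice. The difference between genotypes was -1.76 (adjusted p = 2.6e-05). The scaffold Pdzk1, which holds brush border carriers in place, changed by -0.46. Of 17 phosphate carriers measured 4 fell and 1 rose, and the rise was lost without baseline replicate 1.

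The luminal glucose carriers fell. Slc5a2 (SGLT2), which takes up most filtered glucose and is the target of the gliflozin drugs, read 1.16, 1.06 and 1.31 at baseline and 0.775, 0.689 and 0.756 after infusion. Its change was -0.67 ± 0.10 (adjusted p = 0.000704), while the KO change was 0.44, and the responses differed by -1.10 (adjusted p = 0.000516). Slc5a1 (SGLT1) changed by -0.55, and by -0.95 in its probe set with the largest spread. Among other carriers of organic acids Slc5a8, a sodium-coupled monocarboxylate carrier, changed by -1.0 (-0.62 after quantile normalization) and Slc16a12 by -0.72. The monocarboxylate carrier family also held a rise, Slc16a6, by 0.95, which was of similar size in KO mice (0.89), so that the difference between genotypes was 0.05 (adjusted p = 0.945). Slc16a14 fell in wild-type kidney by 1.01 and its KO change was -0.83, again with no difference called between them (-0.18, adjusted p = 0.779).

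Amino acid carriers were divided, with 9 of 53 up and 9 down (17% each, beside 9.61% and 14.5% of all genes). The rises numbered 4 to 6 with any 1 wild-type array left out. Slc7a13, a brush border carrier of aspartate, glutamate and cystine found in the last part of the proximal tubule, read 1.33, 1.32 and 0.885 at baseline and 0.0965, 0.42 and 0.223 after infusion. All infused arrays lay below all baseline arrays, although the infused ones spread widely among themselves, and the gene was 5.55-fold lower (-2.47 ± 0.37, adjusted p = 0.000546). Its KO change was 0.16, and the call ended when a variance trend on the mean ratio was used (adjusted p = 0.0562). The proton-coupled carrier Slc36a1 changed by -0.69 and the neutral amino acid carrier Slc43a2 by -0.59. Sfxn1, a serine carrier of the mitochondrion, rose by 0.98 in wild-type and by 1.28 in KO kidney, but another of its probe sets fell (-0.26).

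The carriers of metals, nucleosides, vitamins and lipids held 28 falls and 5 rises among 97 genes, and 22 falls and 1 rise after quantile normalization. Without baseline replicate 1 there were 17 falls and 2 rises. Mfsd2a, which carries lysophosphatidylcholine with long-chain fatty acids into cells, read 1.31, 1.22 and 0.943 at baseline and 0.283, 0.213 and 0.185 after infusion. It was 5.15-fold lower (-2.36 ± 0.24, adjusted p = 4.82e-05), with a KO change of 0.46. Within the family the Slc35 nucleotide sugar carriers of the secretory pathway had 12 of 26 members down and 2 up, with Slc35b1 at -0.64 and Slc35a3 at -0.54. The zinc carriers Slc39a5 (-0.68) and Slc30a2 (-0.65), the folate and heme carrier Slc46a1 (-0.44) and the copper carrier Slc31a1 (-0.47) fell too. Over all Slc and Slco genes 78 of 362 fell and 37 rose.

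Of 11 sodium-hydrogen exchangers of the Slc9 family 2 fell (18.2%) and 0 rose, beside 14.5% and 9.61% of all genes. Slc9a8, an exchanger of the Golgi and of apical membranes, read 1.09, 0.907 and 0.988 at baseline and 0.388, 0.385 and 0.294 after infusion. It was 2.81-fold lower (-1.49 ± 0.12, adjusted p = 6.98e-06, and -0.97 after quantile normalization), with groups far apart. Slc9a3 (NHE3), the exchanger that does most of the proximal sodium-hydrogen exchange, stood at -0.14 and was not called, and its probe set with the largest spread stood at -0.35 (adjusted p = 0.046). The water channel Aqp1 of the same tubule segment rose slightly, by 0.34, from 0.981, 0.966 and 0.952 to 1.25, 1.17 and 1.24. Aqp1 moved the other way in KO mice (-0.31), and the responses differed by 0.64 (adjusted p = 0.00292). Cubn, the receptor for filtered proteins and vitamin carriers, rose by 0.65 with arrays of 0.966, 0.907 and 0.993 before and 1.51, 1.28 and 1.74 after infusion.

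Along the nephron, the salt, phosphate and bicarbonate transport genes of the proximal tubule had 9 of 18 members down and 2 up, with a median of -0.28 beside 0.03 for all genes. Of the 17 proximal tubule markers 7 fell and 2 rose, and their mean log2 ratio was 0.02 to 0.09 in baseline and -0.38 to -0.30 in infused arrays (exact permutation test, two-sided, p = 0.1, the smallest possible). The part of this marker shift in the falls of single carriers was not tested. The markers did not move as a block: Cubn rose, and Hnf4a, a factor that defines the segment, stood at -0.16 and was not called.

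In the thick ascending limb and distal convoluted tubule 4 of 23 transport genes fell (17.4%) and 1 rose (4.35%). The shares of all genes were 14.5% and 9.61%. The main salt carriers there were not called, with Slc12a1 (NKCC2) at -0.11 and Slc12a3 (NCC) at 0.29, although Slc12a3 was called without infused replicate 2 (0.41) or baseline replicate 3 (0.39). Cldn16, a tight junction protein needed for magnesium and calcium uptake, changed by -0.58 and Casr, the calcium-sensing receptor, by 0.40. Pvalb, a calcium buffer of the early distal convoluted tubule, changed by -0.51 in wild-type and by 0.84 in KO kidney.

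In the collecting duct 5 of 22 transport genes rose (22.7%) and 3 fell (13.6%), beside 9.61% and 14.5% of all genes. Scnn1a, the alpha subunit of the epithelial sodium channel, read 0.975, 0.997 and 0.927 at baseline and 1.63, 1.41 and 1.59 after infusion. Its change was 0.67 ± 0.10 (adjusted p = 0.000398), and the beta and gamma subunits were not called, with Scnn1b at -0.00 and Scnn1g at 0.03. Sgk1, a kinase that keeps the channel at the membrane and is switched on by aldosterone and glucocorticoids, read 0.801, 0.642 and 0.749 before and 1.29, 1.43 and 1.28 after infusion. It rose by 0.87 ± 0.11 (adjusted p = 0.000163), against a KO change of -0.86, and the difference was 1.73 (adjusted p = 3.2e-05). The water channel Aqp3 fell by 0.64, and by 1.25 in its probe set with the largest spread.

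**Figure D2:**
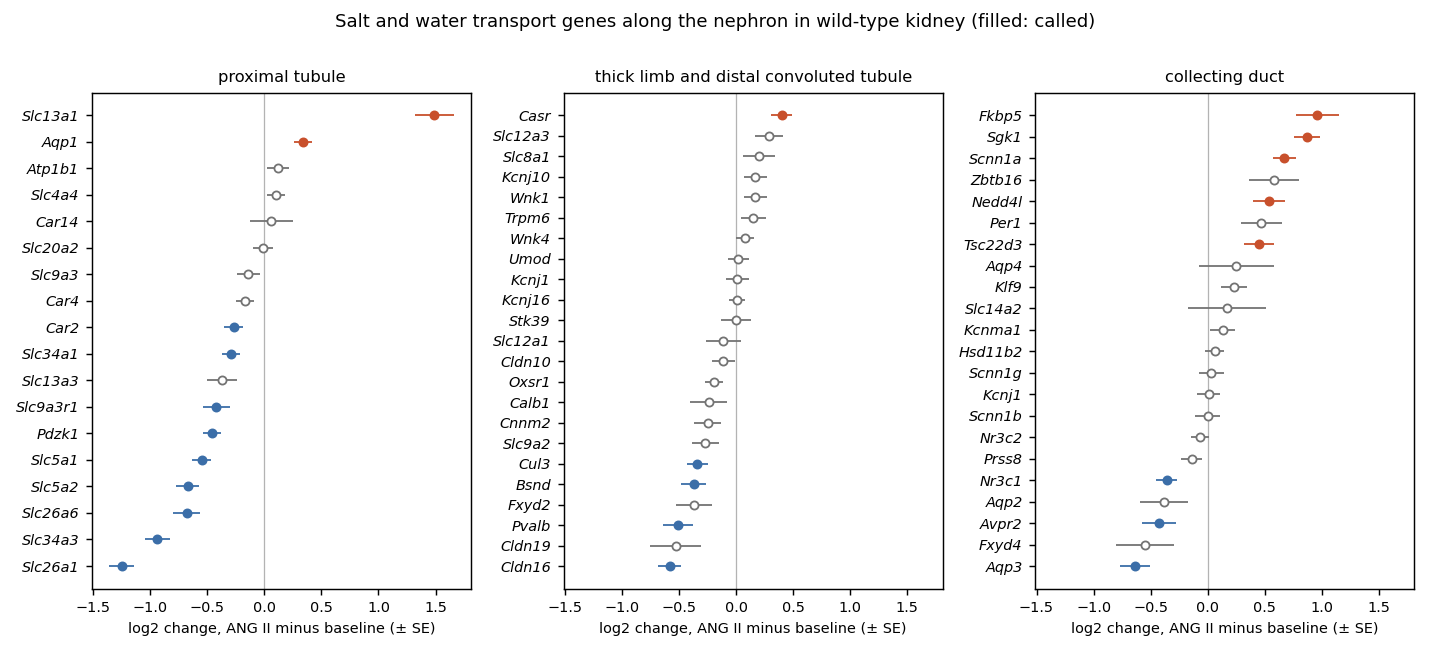
Change of each measured transport gene of the proximal tubule, the thick limb with the distal convoluted tubule, and the collecting duct in wild-type kidney (log2, infused minus baseline, with the moderated standard error as bars), where filled points were called. Slc13a1 at 1.49 and Slc26a1 at -1.25 mark the ends of the proximal tubule list, and Scnn1a and Sgk1 lie among the rises of the collecting duct.

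Potassium channels went mainly upward in small steps, with 16 of 84 genes up and 4 down, but 5 up and 1 down after quantile normalization and 6 up without baseline replicate 1. Kcnt1, a sodium-activated potassium channel, read 0.955, 0.911 and 0.785 at baseline and 1.84, 1.47 and 1.6 after infusion, a change of 0.89 ± 0.13 that differed from KO by 1.0 (adjusted p = 0.00491). Kcnip2, a subunit of A-type potassium channels, rose by 0.82 and Kcnq1, a channel of epithelia and heart, by 0.47. Slc10a6, a carrier of sulfated steroids, read 0.699, 0.783 and 0.703 before and 1.21, 1.31 and 1.3 after infusion and rose by 0.81 ± 0.16. Its KO change was -0.69, and the difference between genotypes was 1.5 (adjusted p = 0.00106).

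**Figure D3:**
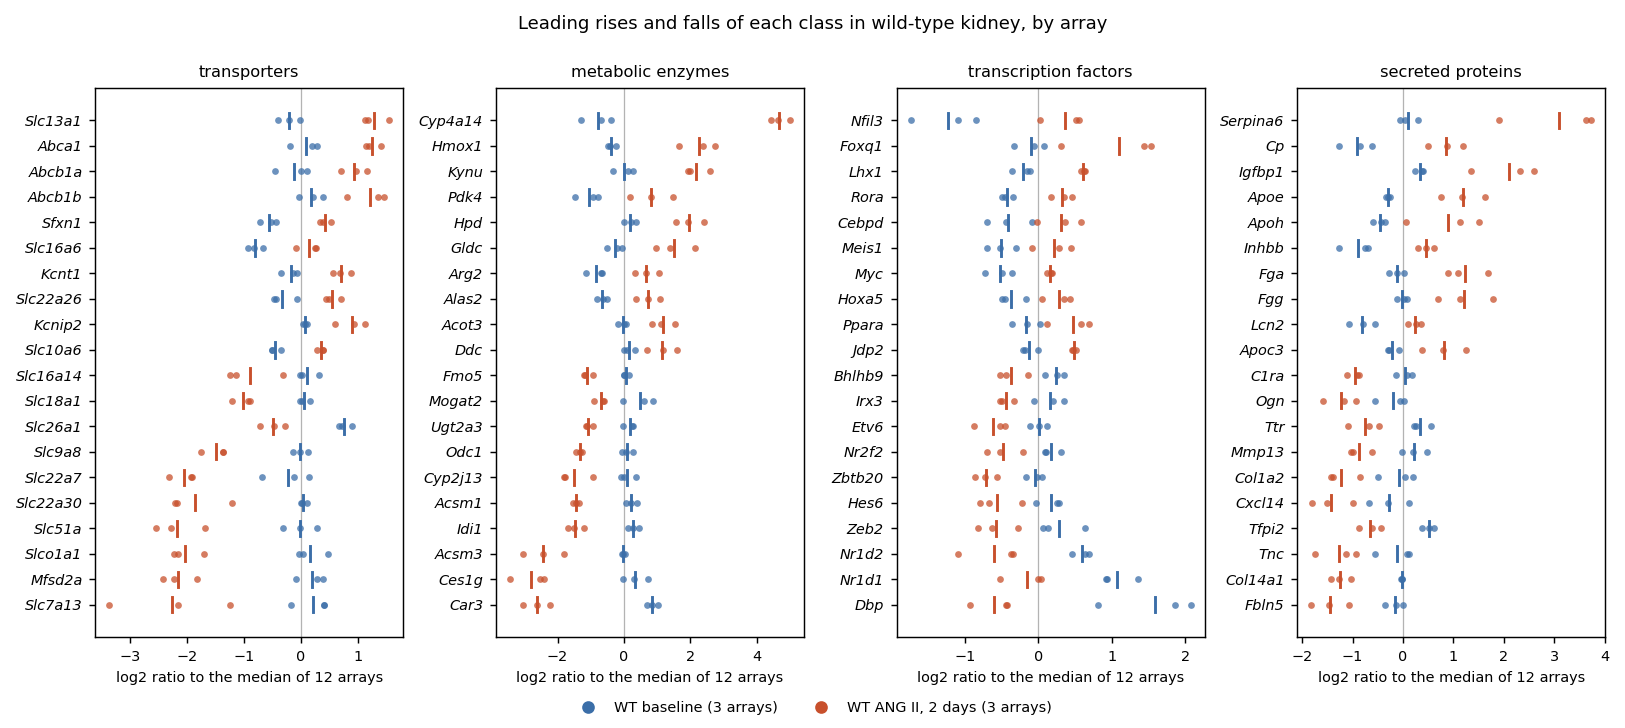
Log2 ratio in each of the 3 baseline and 3 infused wild-type arrays for the 10 largest rises and 10 largest falls among transporters, metabolic enzymes, transcription factors and secreted proteins, chosen among called genes whose groups did not overlap, with short vertical bars at the group means. Cyp4a14 lies far to the right of all others after infusion, and Car3 has the deepest fall.

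Fatty acid metabolism held the largest change of any gene measured. Cyp4a14, an omega-hydroxylase of fatty acids in the cytochrome P450 family and a standard target of the receptor PPAR alpha, read 0.762, 0.409 and 0.618 at baseline and 21.4, 32.1 and 25 after infusion. It rose 44.7-fold (5.48 ± 0.35, adjusted p = 1.86e-06), with a KO change of 0.68 and a difference between genotypes of 4.80 (adjusted p = 7.21e-05). Near-identical Cyp4a genes can share probes, and the part of other members in this value was not tested. Ppara, which encodes the receptor, read 0.897, 0.78 and 1.02 before and 1.5, 1.09 and 1.61 after infusion, a change of 0.63 ± 0.14 (adjusted p = 0.00743). Pdk4, the kinase that turns off pyruvate dehydrogenase and so saves glucose when fat is burned, read 0.526, 0.357 and 0.579 before and 1.76, 1.13 and 2.76 after. It rose 3.70-fold (1.89 ± 0.33) and moved the other way in KO mice (-1.44), with a difference of 3.32 (adjusted p = 0.000766).

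Of 34 genes of fatty acid oxidation and PPAR alpha targets 10 rose and 2 fell, with a median of 0.17, and 5 rose after quantile normalization. Without infused replicate 3 or without baseline replicate 1 6 rose. Acot3, a thioesterase that releases fatty acids from coenzyme A in the peroxisome, rose by 1.21 with arrays of 1.01, 0.877 and 1.05 before and 2.19, 1.81 and 2.9 after infusion. Several standard targets of the receptor were not called, among them Ehhadh at 0.04 and the lipid droplet protein Plin2 at 0.04. Cyp4a12a, a fatty acid hydroxylase of the same P450 family as Cyp4a14 that male mice express strongly, went down, from 1.01, 0.985 and 1.15 to 0.423, 0.66 and 0.51 (-1.01 ± 0.15). The peroxisomal thiolase Acaa1a fell by 0.92, but by 0.40 as the mean of its probe sets. Hacl1, the lyase that shortens branched fatty acids, rose by 0.96.

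Acyl-CoA synthetases prepare medium-chain and aromatic acids for joining to glycine. Of 27 genes of acyl-CoA activation, thioesterases and glycine conjugation 10 fell and 2 rose, with 6 falls without baseline replicate 1. Acsm1 read 1.31, 1.16 and 1.05 at baseline and 0.367, 0.342 and 0.394 after infusion and was 3.19-fold lower (-1.67 ± 0.12, adjusted p = 3.72e-06). Acsm3 read 1.02, 0.95 and 0.982 before and 0.185, 0.284 and 0.121 after, a change of -2.41 ± 0.21, whose call ended with the variance trend (adjusted p = 0.107). Their relatives Acsm5 (-0.67) and Acsm2 (-0.58) fell less far. All infused arrays of Acsm1 and Acsm3 lay below all baseline arrays.

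Cholesterol synthesis had the largest share of falls of any enzyme family. Of 20 enzymes 11 fell and 2 rose, and 9 fell and 0 rose after quantile normalization, while 8 to 11 fell with any 1 wild-type array left out. Idi1, which makes the isoprene unit dimethylallyl diphosphate, read 1.2, 1.38 and 1.08 at baseline and 0.355, 0.43 and 0.309 after infusion. It was 3.36-fold lower (-1.75 ± 0.15, adjusted p = 1.47e-05), and its response differed from KO by -2.20. Dhcr7, which makes the last reduction to cholesterol, read 1.43, 1.36 and 1.28 before and 0.668, 0.586 and 0.637 after (-1.10 ± 0.11, adjusted p = 3.72e-05). Cyp51 (-0.86, and -0.56 as the mean of its probe sets), Mvd (-0.69), Nsdhl (-0.61), Tm7sf2 (-0.58) and Hmgcs1 (-0.58) lie at earlier or later steps of the same path. The 2 enzymes counted as rises, Fdft1 (0.35) and Lss (0.33), stood at -0.44 and -0.12 in the probe set with the largest spread, and their calls ended after quantile normalization. Sqle, the epoxidase between them, stood at -0.27 and was not called.

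The promoter of Hmgcs1, the cytosolic synthase early in the path, is shown because it was the only promoter of the 16 cholesterol genes with a window that held the sterol element searched for, TCACNCCAC on either strand. The window is that of the RefSeq genes on assembly GRCm38.p6, 250 bases before to 50 after the start, and the printed stretch lies at chr13:119690174-119690262 on the plus strand with the match in capitals, its last base 129 bases before the start. Over all 14452 genes with a window 1.46% held the element. A match of letters is no measurement of binding.
Hmgcs1: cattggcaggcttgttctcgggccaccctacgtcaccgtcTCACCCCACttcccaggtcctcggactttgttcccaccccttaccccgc

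Genes of the citrate cycle and the respiratory chain gave the largest number of falls of any enzyme family, 43 of 115 with 6 rises and a median of -0.17. The falls numbered 27 after quantile normalization and 27 without baseline replicate 1, and the responses of 27 called members differed from KO. The individual falls were mostly under 2-fold. Cycs, cytochrome c, changed by -1.05, the complex I assembly factor Ndufaf4 by -0.90 and the heme A synthase Cox15 by -0.58. The complex II subunit Sdhc changed by -0.49 and the complex III subunit Uqcrb by -0.48. Idh1, a cytosolic isocitrate dehydrogenase counted here by its symbol, changed by -0.66. Ppargc1a, the coactivator that raises mitochondrial genes, stood at -0.04 and was not called. Of 57 genes of glycolysis, gluconeogenesis and the pentose phosphate path 14 fell and 3 rose, with Taldo1, a transaldolase, at -0.64.

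Gluconeogenesis showed a rise at its last step. G6pc, the phosphatase that frees glucose, read 0.647, 0.735 and 0.862 at baseline and 1.42, 1.39 and 1.29 after infusion (0.88 ± 0.12, adjusted p = 0.000282). Pck1, which feeds the path from oxaloacetate, stood at 0.23 and was not called by the probe set that stands for it, while its probe set with the largest spread rose by 1.93 (adjusted p = 1.51e-06), so the probe sets of Pck1 disagree.

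Amino acid metabolism held strong changes at a few steps. Of 112 genes 26 fell and 14 rose. Kynu, which splits kynurenine in tryptophan breakdown, read 1.21, 0.787 and 1.08 at baseline and 5.98, 3.94 and 3.84 after infusion, 4.45-fold higher (2.15 ± 0.19), and rose by 1.19 as the mean of its probe sets. Hpd, the dioxygenase of tyrosine breakdown, read 1.16, 1.0 and 1.28 before and 5.28, 2.98 and 3.83 after (1.78 ± 0.25). Gldc, the glycine-splitting enzyme of the mitochondrion, read 0.873, 0.701 and 0.953 before and 4.37, 1.95 and 2.64 after (1.76 ± 0.22). All 3 enzymes degrade amino acids, and in each every infused array lay above every baseline array. The responses of Hpd and Gldc differed from KO by 1.47 (adjusted p = 0.0201) and 1.82 (adjusted p = 0.00301). Kyat3, another kynurenine enzyme, rose by 0.90 and Prodh, which opens proline breakdown, by 0.70.

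Arginine use changed at both of its branches. Arg2, the mitochondrial arginase that makes ornithine, read 0.613, 0.635 and 0.451 at baseline and 2.08, 1.25 and 1.58 after infusion. It rose 2.86-fold (1.52 ± 0.20, adjusted p = 0.000271) and changed by -1.31 in KO mice, with a difference of 2.83 (adjusted p = 7.21e-05). Odc1, which turns ornithine into putrescine for polyamines, read 1.05, 0.951 and 1.2 before and 0.416, 0.403 and 0.369 after. It was 2.68-fold lower (-1.42 ± 0.15) and changed by 1.31 in KO mice, with a difference of -2.73 (adjusted p = 1.32e-05). Ornithine supply and ornithine use were therefore measured in opposite directions in both genotypes, with the signs exchanged. Gatm, which spends arginine and glycine on the creatine precursor, read 1.27, 1.36 and 1.25 before and 0.53, 0.773 and 0.549 after (-1.09 ± 0.14). Azin1, which protects ornithine decarboxylase from its antizyme, fell by 0.74 and the antizyme Oaz2 by 0.41, or by 0.23 as the mean of its probe sets.

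Heme and iron genes included one of the strongest rises. Hmox1, the inducible heme oxygenase that protects tubules from heme, read 0.844, 0.723 and 0.744 at baseline and 5.26, 3.17 and 6.65 after infusion. It rose 6.25-fold (2.64 ± 0.20, adjusted p = 5.5e-06) with a KO change of -0.49 and a difference of 3.13 (adjusted p = 3.45e-05). Tfrc, the transferrin receptor, fell by 1.41, from 1.09, 1.31 and 1.17 to 0.443, 0.447 and 0.451, and all 3 of its probe sets fell. Hmox1 did not stand for the antioxidant genes as a group: of the 28 heme and oxidative stress genes 7 rose and 7 fell, and the standard targets of the factor NRF2 among the falls were Nqo1 (-0.63), Gclm (-0.36) and Gsr (-0.43).

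Alas2, the heme synthesis enzyme of red cell precursors, rose by 1.38, from 0.7, 0.648 and 0.566 to 1.66, 2.14 and 1.28. Over the 5 red blood cell markers measured, Alas2 among them, 3 rose and 0 fell, their mean log2 ratio was -0.14 to -0.04 in baseline and 0.29 to 0.39 in infused arrays. The beta globin Hbb-b2 (0.46, and 1.16 in its probe set with the largest spread) and Klf1, a factor of red cell precursors (0.33), rose too, calls that ended after quantile normalization (adjusted p = 0.0604 and 0.27), and the alpha globin Hba-a1 stood at 0.05 and was not called. The part of red cells in the change of Alas2 was not tested.

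Detoxification enzymes fell more than they rose, as did all genes together. Of 97 glutathione, glucuronosyl and sulfo transferases and carboxylesterases 23 fell (23.7%) and 12 rose (12.4%), beside 14.5% and 9.61% of all genes. After quantile normalization 19 fell (19.6%) and 3 rose (3.09%), beside 8.92% and 3.27% of all genes. Rises numbered 5 without baseline replicate 2, 6 without infused replicate 3 and 7 without baseline replicate 1. Ces1g, a carboxylesterase that splits lipid and drug esters, read 1.24, 0.975 and 1.65 at baseline and 0.0921, 0.189 and 0.173 after infusion. It was 8.72-fold lower (-3.12 ± 0.26, adjusted p = 1.03e-05). It also fell in KO kidney, by 1.39, and the responses differed by -1.73 (adjusted p = 0.011). Ces1f (-0.91), Ces2b (-0.78) and Ces1e (-0.64) fell as well. Near-identical genes of the Ces1 cluster can share probes, so their separate values are uncertain.

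Other members of this group fell without a KO fall. Ugt2a3, a glucuronosyl transferase, changed by -1.25 in wild-type and by 0.93 in KO kidney, with a difference of -2.18, and Fmo5, a flavin monooxygenase, by -1.16 and 0.43, with a difference of -1.59. Cyp2j13, a P450 of the epoxygenase family, read 1.01, 0.943 and 1.28 at baseline and 0.285, 0.519 and 0.294 after infusion (-1.6 ± 0.19, adjusted p = 0.000117), and its relative Cyp2j11 changed by -0.69. Ephx2, which inactivates the epoxides that such enzymes make from arachidonic acid, changed by -0.74. Aldh1a7, an aldehyde dehydrogenase, fell by 1.13, Gstp1, a glutathione transferase, by 0.63 and the dipeptidase Dpep1 by 0.91. Rises within the class included Sult1a1, a sulfotransferase, by 0.78 and the P450 genes Cyp2d9 by 0.82 and Cyp17a1 by 0.80. Of 71 P450 genes 13 rose and 7 fell, with 5 rises after quantile normalization and 6 without baseline replicate 1.

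The deepest fall of any gene was that of Car3, a carbonic anhydrase of low activity that adipose tissue, muscle and liver express. It read 1.8, 2.04 and 1.63 at baseline and 0.121, 0.212 and 0.163 after infusion, 11.3-fold lower (-3.50 ± 0.17, adjusted p = 5.01e-07), or -1.55 as the mean of its probe sets. Its KO change was 1.11, and the difference between genotypes was -4.61 (adjusted p = 6.53e-07). Car3 was also a member of the adipocyte marker list, of which 1 of 11 fell, Car3 itself, and 2 rose. The defining adipocyte markers were not called, with Adipoq, the adiponectin gene, at 0.13 and the fatty acid carrier Fabp4 at -0.12.

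Transcription factors had more rises than falls in the counts of these families, and the number of rises depended on the scaling. Of 121 homeodomain factors 18 rose and 4 fell, and 7 rose after quantile normalization. Of 37 forkhead factors 9 rose and 0 fell, and 3 rose after it. Without baseline replicate 1 8 homeodomain and 4 forkhead factors rose, and without infused replicate 3 9 and 3 did. The factors named next had groups that did not overlap.

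Nfil3, a bZIP repressor that competes with DBP for the D-box of clock output genes, had the largest rise of any factor. It read 0.554, 0.3 and 0.469 at baseline and 1.43, 1.02 and 1.47 after infusion, 3.02-fold higher (1.6 ± 0.19, adjusted p = 0.000131), with a KO change of -0.05 and a difference of 1.64 (adjusted p = 0.00243). Foxq1, a forkhead factor of epithelia, read 1.06, 0.796 and 0.963 before and 2.7, 1.24 and 2.9 after, where infused replicate 2 lay nearest to baseline (1.19 ± 0.24). Myc, a driver of growth and ribosome synthesis, read 0.784, 0.711 and 0.604 before and 1.09, 1.13 and 1.14 after (0.69 ± 0.13), and its response differed from KO by 1.02 (adjusted p = 0.00349). Cebpd, a factor of the acute phase response, rose by 0.72 while its KO change was -1.32, and the call ended without baseline replicate 2 (adjusted p = 0.0583).

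Homeobox and other developmental factors with rises included Hoxa5 (0.65), Hoxb7 (0.43), the cilium factor Foxj1 (0.48) and the inhibitory SMAD Smad6 (0.46). Falls included Hes6 (-0.73), an inhibitor of HES1 whose response differed from KO by -0.99, Etv6 (-0.63), an ETS repressor, and Irx3 (-0.61), an Iroquois factor that patterns the nephron. The nuclear receptor Hnf4g, close to HNF4A, fell by 0.51, and Mlx, a partner of the carbohydrate-sensing factor ChREBP, fell by 0.54. Of 42 nuclear receptors 6 fell (14.3%) and 3 rose (7.14%), close to the shares of all genes (14.5% and 9.61%).

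The core circadian clock was measured with large differences between the groups. In the clock, CLOCK with BMAL1, the product of Arntl, binds E-boxes and switches on the Per, Cry, Nr1d and Dbp genes. PER and CRY proteins then block that pair, NR1D1 and NR1D2 (REV-ERB) repress Arntl, Cry1 and Nfil3, and DBP and NFIL3 act in opposite directions on D-boxes. The time of day at which kidneys were taken is not in the labels. Promoter stretches of Cry1 and Ciart are shown because these E-box genes were called in opposite directions, and that of Per3 because it was the only clock gene whose window held a D-box. They are RefSeq windows of GRCm38.p6, written along the minus strand, which all 3 genes occupy, with E-boxes (CACGTG) or D-boxes (TTATGTAA) in capitals. Cry1 lies at chr10:85185069-85185154, Ciart, which encodes a repressor of CLOCK with BMAL1, at chr3:95882229-95882332 and Per3 at chr4:151044776-151044910.
Cry1: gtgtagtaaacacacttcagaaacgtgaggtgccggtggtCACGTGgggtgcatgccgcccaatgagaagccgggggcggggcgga
Ciart: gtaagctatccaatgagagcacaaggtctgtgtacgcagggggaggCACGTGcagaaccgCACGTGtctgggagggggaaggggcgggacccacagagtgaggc
Per3: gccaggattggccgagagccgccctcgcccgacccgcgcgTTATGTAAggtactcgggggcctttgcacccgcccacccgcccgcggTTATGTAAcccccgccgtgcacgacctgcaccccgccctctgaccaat

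The E-box nearest the start ended 55 bases before it in Cry1 and 39 in Ciart, and the nearest D-box of Per3 ended 151 bases before it. Of the 18 clock genes with a window 5 held an E-box (27.8%), beside 10.2% of all 14452 windows. The E-box was about as common among genes that rose (9.97%) as among genes that fell (10.9%). For the D-box, written TTATGTAA or TTACGTAA and read on both strands, 1 of 18 clock windows held it beside 1.02% of all windows. These are counts of letters in a short window and show no binding.

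Of 21 clock genes 5 rose and 4 fell. On the rising side Cry1 read 0.582, 0.2 and 0.328 at baseline and 1.17, 0.873 and 1.27 after infusion, 3.24-fold higher (1.70 ± 0.28, adjusted p = 0.00114), with a KO change of -0.09 and a difference of 1.78 (adjusted p = 0.0133). Arntl read 0.965, 0.982 and 0.932 before and 1.26, 1.47 and 1.66 after (0.60 ± 0.12), and its probe set with the largest spread rose by 1.6. Rora, the activator of Arntl, rose by 0.76, or by 0.29 as the mean of its probe sets. In each of Cry1, Arntl and Nfil3 the groups were apart, though the baseline arrays of Cry1 spread widely.

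On the falling side Dbp read 3.63, 1.76 and 4.2 at baseline and 0.74, 0.745 and 0.523 after infusion, 4.54-fold lower (-2.18 ± 0.45, adjusted p = 0.00417). Its KO change was -0.12, and the difference between genotypes missed the threshold (-2.06, adjusted p = 0.0541). Nr1d1 read 1.91, 2.55 and 1.9 before and 1.03, 1.0 and 0.698 after (-1.23 ± 0.17, and -2.06 after quantile normalization), and its difference from KO was -1.22 (adjusted p = 0.00645). Nr1d2 read 1.55, 1.37 and 1.62 before and 0.785, 0.772 and 0.471 after (-1.20 ± 0.26). The REV-ERB genes and Dbp thus fell in the same kidneys in which Arntl, Cry1 and Nfil3 rose.

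The Per genes did not follow either side. Per1 stood at 0.47 (adjusted p = 0.0739), Per2 at -0.39 (adjusted p = 0.292) and Per3 at -0.12, and Cry2 stood at 0.12. Without baseline replicate 3 Per1 was called (0.60, adjusted p = 0.0495), and without baseline replicate 2 Per2 was (-0.72, adjusted p = 0.0459). Ciart read 1.5, 1.04 and 1.88 at baseline and 0.997, 1.0 and 0.734 after infusion, a change of -0.67 ± 0.21 (adjusted p = 0.0355). That call was lost when replicate numbers were used as a block (adjusted p = 0.0521), after quantile normalization (0.056) and with array weights or any of 4 single arrays left out. The rise of Bhlhe41 (0.38, adjusted p = 0.0337) ended after quantile normalization (adjusted p = 0.175) and without any of 5 single arrays. Clock stood at -0.14 and its probe set with the largest spread at 0.51 (adjusted p = 0.0142), so the probe sets of Clock disagree.

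**Figure D4:**
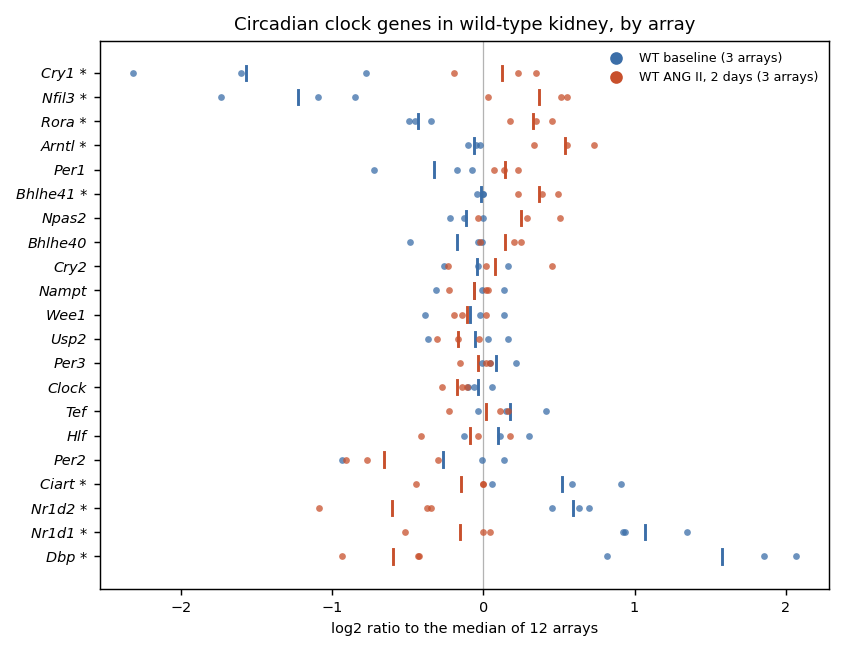
Log2 ratio of the 21 measured circadian clock genes in each baseline and infused wild-type array, where each point is an array, short vertical bars mark the group means and an asterisk marks a called gene. Dbp, Nr1d1, Nr1d2 and Ciart lie lower in the infused arrays, Cry1, Nfil3, Arntl, Rora and Bhlhe41 lie higher, and the Per genes have no call.

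Of 59 secreted acute phase, carrier and lipid-binding plasma proteins 13 rose and 3 fell, and 8 rose after quantile normalization, while 10 to 19 rose with any 1 wild-type array left out. Serpina6, the corticosteroid-binding globulin that carries glucocorticoids in blood, read 1.03, 0.953 and 1.23 at baseline and 12.4, 3.75 and 13.3 after infusion. Infused replicate 2 was far below the other infused arrays and still above all baseline arrays, and the gene was 7.99-fold higher (3.00 ± 0.34, adjusted p = 8.65e-05). Its KO change was 0.29 and the difference was 2.71 (adjusted p = 0.00363).

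Cp, ceruloplasmin, a copper protein that oxidises iron so that transferrin can bind it, read 0.553, 0.65 and 0.414 at baseline and 1.84, 1.41 and 2.27 after infusion. It rose 3.41-fold (1.77 ± 0.19), changed by -1.32 in KO mice and differed by 3.09 (adjusted p = 2.52e-05). Apoe, the ligand for lipoprotein uptake, read 0.841, 0.816 and 0.789 before and 3.09, 1.69 and 2.24 after (1.48 ± 0.19), against a KO change of -0.92 and a difference of 2.40. Apoc3 (1.03), Apoh (1.36) and Apoa4 (0.60) rose as well, the KO change of Apoc3 being 0.71 and its difference from KO 0.32 (adjusted p = 0.452). Lcn2, or NGAL, a siderophore-binding protein used as a marker of tubular injury, read 0.685, 0.574 and 0.476 before and 1.2, 1.07 and 1.28 after (1.05 ± 0.26). In KO mice Lcn2 changed by -2.24, and the difference was 3.29 (adjusted p = 0.000147). Lcn2 is also a granule gene of neutrophils, of whose 9 markers 4 rose and 0 fell, with mean log2 ratios of -0.12 to -0.01 at baseline and 0.17 to 0.58 after infusion. None of them was called after quantile normalization (0 of 9) or without infused replicate 3, and the defining markers S100a8 (0.80) and S100a9 (0.83) were not called. The part of neutrophils in the change of Lcn2 was not tested.

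The 3 chains of fibrinogen, the clotting protein, rose together. Fga read 1.02, 0.826 and 0.919 at baseline and 3.21, 1.86 and 2.14 after infusion (1.35 ± 0.16). Fgg read 1.01, 0.916 and 1.05 before and 3.45, 2.18 and 1.62 after (1.21 ± 0.19), and Fgb 0.753, 1.07 and 0.967 before and 2.2, 1.33 and 1.71 after (0.89 ± 0.16). All infused arrays of each chain exceeded all baseline arrays. The difference from KO was called for Fga (1.70, adjusted p = 0.000442) and missed the threshold for Fgg (adjusted p = 0.0582) and Fgb (adjusted p = 0.138).

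Several of these proteins are made by liver, and the hepatocyte markers were therefore read beside them. Of 14 hepatocyte markers 5 rose and 1 fell, and their mean log2 ratio was -0.09 to -0.02 in baseline and 0.11 to 0.31 in infused arrays. The defining markers were not called, with albumin (Alb) at 0.16 and Ahsg, fetuin-A, at -0.01. Ttr, transthyretin, the thyroid hormone carrier made by liver, fell by 1.09, from 1.46, 1.17 and 1.2 to 0.47, 0.628 and 0.719, and all 4 of its probe sets fell.

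Growth factor and hormone-binding genes were led by Igfbp1, which binds insulin-like growth factors. It read 1.31, 1.3 and 1.18 at baseline and 6.07, 5.01 and 2.55 after infusion, 3.37-fold higher (1.75 ± 0.26, adjusted p = 0.000503), with a KO change of -1.0 and a difference of 2.75 (adjusted p = 0.000518). Inhbb, the activin beta B subunit, read 0.621, 0.593 and 0.416 before and 1.53, 1.37 and 1.23 after. It rose 2.56-fold (1.36 ± 0.14, and 0.76 as the mean of its probe sets), changed by -1.78 in KO mice and differed by 3.13 (adjusted p = 2.54e-06). Wnt7a, a WNT ligand, rose by 0.64 and Chrdl2, an antagonist of bone morphogenetic proteins, by 0.77. Of 77 insulin-like growth factor, FGF, EGF and VEGF genes 11 rose (14.3%) and 7 fell (9.09%), beside 9.61% and 14.5% of all genes. The rises numbered 4 after quantile normalization and 4 without baseline replicate 1.

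Of 102 matrix genes 16 fell (15.7%, close to the 14.5% of all genes) and 5 rose, with a median of -0.00, and 8 fell without baseline replicate 1 and 9 without baseline replicate 2. Fbln5, which organises elastic fibres, read 0.905, 1.0 and 0.784 at baseline and 0.283, 0.477 and 0.363 after infusion (-1.29 ± 0.18, and -0.72 after quantile normalization). Its other probe set stood at -0.02 and was not called. Col14a1, a collagen that binds fibrils, fell by 1.22, and Ogn, a small proteoglycan, by 1.03, or by 0.78 and 0.57 after quantile normalization. Tfpi2, an inhibitor of matrix-degrading proteases, read 1.43, 1.54 and 1.3 before and 0.734, 0.65 and 0.548 after (-1.15 ± 0.12), against a KO change of 0.67. Mmp13, a collagenase, fell by 1.09 and Col4a3, a chain of the glomerular basement membrane, by 0.64. In the list of matrix and fibrosis genes 2 of 27 fell and 1 rose, with a median of -0.20. The fibrosis genes Tgfb1 (-0.25), Fn1 (-0.47) and Ccn2 (0.05) were not called. Col3a1 was not called by the probe set that stands for it (-0.76) but fell by 2.42 in the one with the largest spread (adjusted p = 0.00255).

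C1ra, the protease that starts the classical complement path, read 1.13, 1.06 and 0.905 at baseline and 0.549, 0.53 and 0.466 after infusion (-1.0 ± 0.12, adjusted p = 0.000132). Its KO change was of like size (-0.91), and the difference was -0.09 (adjusted p = 0.798). Of 16 macrophage markers, cells that make complement proteins, 5 fell and 0 rose, none of these calls holding after quantile normalization or without baseline replicate 1, and their mean log2 ratio was -0.30 to 0.02 in baseline and -0.61 to -0.34 in infused arrays. The part of macrophage number in the fall of C1ra was not tested.

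Genes linked to glucocorticoid action rose in a larger share than in any other pathway list. The lists were written with earlier results of these data known, so this ranking is a description and no test. Of 27 measured 14 rose and 1 fell, with a median of 0.47 beside 0.03 for all genes, and 13 rose and 0 fell after quantile normalization, while 12 to 14 rose with any 1 wild-type array left out. Serpina6, Pdk4, Igfbp1, Lcn2 and Sgk1 are members of the list, which holds genes that glucocorticoids are known to raise and genes of their transport and reception, and Serpina6 is known to be lowered by glucocorticoids in rodent liver. Depp1, a target of FOXO factors, read 0.746, 0.968 and 0.68 at baseline and 5.2, 10.6 and 2.03 after infusion, 6.12-fold higher (2.61 ± 0.40). Cdkn1a, the cell cycle inhibitor p21, read 0.443, 0.558 and 0.477 before and 1.8, 1.09 and 1.47 after (1.54 ± 0.21), with a KO change of -0.72 and a difference of 2.26 (adjusted p = 0.000518). Fkbp5, a cochaperone of the glucocorticoid receptor, rose by 0.96, with arrays of 0.641, 0.692 and 0.784 before and 2.0, 1.02 and 1.26 after. Other members were not called, among them Klf15 (0.20) and Tat (0.20), and the 1 fall was the receptor gene Nr3c1 (-0.36), a call that ended after quantile normalization (adjusted p = 0.0967). Further probe sets of Nr3c1 fell as well (-1.19, -0.52 and -0.38), while those at -0.24 and 0.11 were not called. No hormone was measured. Of 9 adrenal cortex markers 1 rose and 0 fell, and their mean log2 ratio was -0.04 to 0.00 at baseline and 0.06 to 0.21 after infusion (exact permutation test, two-sided, p = 0.1, the smallest possible). The rise was that of Mc2r, the corticotropin receptor (0.38), which was not called after quantile normalization (adjusted p = 0.0797), and the defining markers Star (0.00) and Cyp11a1 (0.01) were not called. The part of adrenal tissue in these values was not tested.

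Within the renin-angiotensin system 6 of 15 measured genes fell and 1 rose, with a median of -0.14. Agtr1a, the AT1A receptor, read 1.37, 1.4 and 1.36 at baseline and 0.957, 1.0 and 0.997 after infusion (-0.48 ± 0.08, adjusted p = 0.0012). The same probe set read 0.917 to 1.05 over the 6 KO arrays, and the sources used here do not say whether it lies in the deleted stretch. The other receptor genes, Agtr1b (0.14) and Agtr2 (-0.11), were not called. Ace, angiotensin-converting enzyme, read 1.07, 0.998 and 1.0 before and 0.598, 0.663 and 0.62 after (-0.71 ± 0.09, adjusted p = 0.000209), and its difference from KO was -0.97 (adjusted p = 0.000553). Anpep, an aminopeptidase that shortens angiotensin peptides, read 0.989, 0.994 and 1.12 before and 0.606, 0.593 and 0.649 after (-0.75 ± 0.08). The groups of each of these 3 genes lay apart. Agt, angiotensinogen, was the rise, by 0.58, and that call ended after quantile normalization (adjusted p = 0.0567).

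Both stress lists held more falls than rises, as did all genes together. Of all genes 14.5% fell and 9.61% rose, and after quantile normalization 8.92% fell and 3.27% rose. Of 22 interferon response genes 8 fell (36.4%) and 0 rose, with 4 falls (18.2%) after quantile normalization and 5 without baseline replicate 1. Usp18, which restrains interferon signalling, read 0.994, 1.01 and 0.959 at baseline and 0.633, 0.542 and 0.55 after infusion (-0.78 ± 0.13), and its KO change was of like size (-0.68). Of 25 unfolded protein and heat shock genes 9 fell (36%) and 2 rose (8%), with 4 falls (16%) after quantile normalization and 4 without baseline replicate 1. Chac1, which degrades glutathione under amino acid stress, rose by 1.46 with arrays of 0.94, 0.929 and 0.748 before and 2.56, 4.17 and 1.27 after. Hspa8, the constitutive chaperone, fell by 1.72 in the probe set that stands for it, while its other 3 probe sets stood at -0.09, 0.16 and -0.09 and were not called.

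The leading genes of the 4 classes were set beside KO kidney as a last comparison. Of 80 genes, 10 rises and 10 falls in each class, the wild-type response differed from the KO response in 57, counted as 16 transporters, 18 enzymes, 11 factors and 12 secreted proteins. The difference was called for 1864 of all genes (10.2%). Over probe sets it was called in 4404 (9.78%), in 2867 after quantile normalization, in 2868 without baseline replicate 3 and in 2484 without infused KO replicate 3. The 80 genes were chosen for a large change in wild-type kidney, which enters both contrasts, so their share is not read against that background. In KO kidney 51 of the 80 were not called. The share of all genes not called in KO kidney is not given here, so the 51 are not read as a result. Among the 80 were also genes whose wild-type and KO changes were of like size, such as Slc16a6 and C1ra, where no difference was called.

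**Figure D5:**
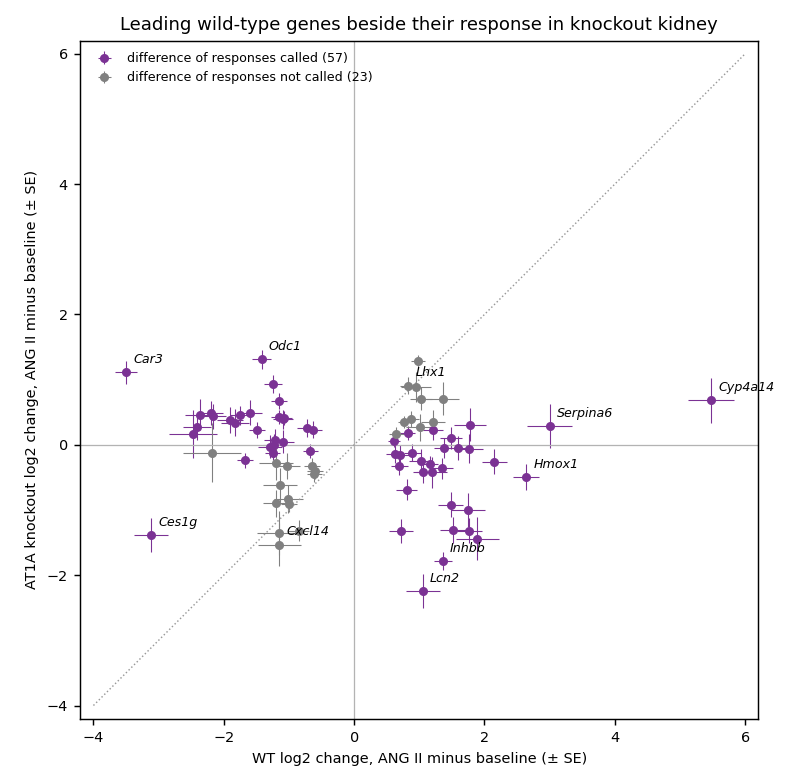
Change with infusion in wild-type kidney (horizontal axis, log2) against that in KO kidney (vertical axis, log2) for the 80 leading genes, with moderated standard errors as bars, where purple points mark the 57 genes whose responses differed and grey points the other 23, and the dotted line marks equal responses. Cyp4a14 lies at 5.48 in wild-type and 0.68 in KO kidney, and Car3 at -3.50 and 1.11.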

How the data were processed

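Total RNA of 12 kidneys was hybridised to Affymetrix Mouse Genome 430 2.0 arrays, 1 per mouse, and processed with RMA per the submitters' processing notes (version not given in the sources used here). The values deposited by the authors are linear ratios, read from the values since the labels state no division: in 45099 of 45101 probe sets the 12 arrays had a median no further than 0.002 from 1. Array medians were 0.986 to 1.014, 0 of 66 pairs of arrays were identical, and signal over background cannot be read, so no filter on dim probe sets was applied. Precision is limited by having 3 arrays per group.

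Here log2 of the ratios was analysed, without 64 control probe sets. Of 45037 probe sets 34945 carried 1 symbol in the platform annotation, 932 several and 9160 none, and 9010 genes had more than 1. Where a gene had several, plain _at names came first, then _a_at, then _s_at and last _x_at, and among equals the lowest number. limma 3.58.1 in R 4.3.3 fitted a mean for each of the 4 groups to all 12 arrays, with 8 residual and 5.83 prior degrees of freedom. Tests were two-sided, with Benjamini-Hochberg adjustment over all probe sets. In simulated data with this design the fit called 41 of 100 probe sets given a change of 0.5 (log2), 96 of 100 given a change of 1, and 9 of the unchanged remainder. Only those probe sets were changed, with independent noise, whereas 24.1% of probe sets were called in the real data. The simulated counts therefore do not give the recovery or the false calls of the real fit.

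Genes were assigned to 4 classes by symbol and family, and 594 of 654 list members were measured. The members, lists and alternatives were chosen with earlier results of these data known. A rule picked 196 genes. It took the 10 largest rises and falls of each class among called genes with groups apart, and the 12 largest of each over all genes. It also took up to 5 called rises and 5 called falls of each list. The text names only part of these, and further members chosen after their values were seen. Promoter windows from the RefSeq table matched 14452 of 18193 genes.

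Same-numbered infused and baseline arrays deviated together (correlations 0.19, 0.18 and 0.13, against -0.18 to 0.02 for other pairs), a pairing read from the data and not from the labels. The replicate number as a block was an alternative, beside a variance trend, a fit to the 6 wild-type arrays, quantile normalization, centring, a filter on spread, array weights, other probe sets of a gene, adjusted p under 0.01 and each array left out.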

Additional observations from a re-analysis of the deposited data

Results flagged for a closer look

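Responses that differed between wild-type and KO kidney were counted in each class among genes called in wild-type kidney: 73 of 173 transporters, 149 of 277 enzymes, 26 of 110 transcription factors and 31 of 139 secreted proteins, beside 1333 of 4392 over all genes (limma, adjusted p under 0.05 for the difference).

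In 31 named genes the wild-type and KO changes were both called and opposite in sign, and the difference, wild type minus KO on the log2 scale, was called as well. The genes were named for a called wild-type change or after their values were seen, and the wild-type change also enters the difference. The share over all genes is not given here, so the 31 are a description and no test. Among transporters and channels it was 1.5 for Slc10a6, -1.48 for Slc18a1, -1.76 for Slc34a3, -1.10 for Slc5a2, -1.20 for Slc39a5 and 0.64 for Aqp1. Among enzymes it was 3.32 for Pdk4, 2.83 for Arg2, -4.61 for Car3, -2.73 for Odc1, -2.18 for Ugt2a3, -1.59 for Fmo5, -1.35 for Ces2b, -0.95 for Nsdhl and 1.37 for Sult1a1. Among secreted proteins it was 3.09 for Cp, 2.75 for Igfbp1, 2.40 for Apoe, 3.13 for Inhbb, 3.29 for Lcn2, -1.83 for Tfpi2 and 1.79 for Serpina1b. It was 2.03 for the factor Cebpd and -1.03 for the factor Hnf4g. It was 1.73 for the kinase Sgk1, 2.26 for Cdkn1a, -1.35 for Pvalb, -0.68 for the endothelial receptor Kdr, 1.62 for Sesn2, -2.24 for Cenpj and -2.66 for Gm32461. The calls of Cebpd and Serpina1b in wild-type kidney ended when single arrays were left out.

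Probe sets without a single gene symbol, which entered no class or list, held 2082 calls among 10092 (20.6%), 1631 up and 451 down. The changes reached 2.88 upward and -2.14 downward, and 57 were of at least 2-fold.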

How the results depend on the processing

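Of 331 genes called by the main settings and named by the rule or the text, 205 were called under every alternative run. The sign of a called gene changed in 5 cases, counted per gene and alternative, those of Fdft1, Lss and Ccnd3 given below. Of 80 leading genes 68 were called under every alternative. Quantile normalization ended 81 calls and left 1878 probe sets up, 3826 down and 2867 differences from KO, with 25 transporters, 42 enzymes, 32 factors and 31 secreted proteins up and 33 secreted proteins down. At an adjusted p under 0.01 1364 probe sets rose and 3008 fell. With the probe set of largest spread 56 factors fell. With single arrays left out the ranges were 2182 to 5721 probe sets up, 3591 to 6556 down and 2484 to 5104 differing from KO. The same ranges were 31 to 77 transporters up, 49 to 81 enzymes up, 34 to 95 factors up, 20 to 41 factors down, 34 to 102 secreted proteins up and 34 to 58 down. Leaving out an array also leaves fewer samples, and the causes were otherwise not tested.

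With the replicate number as a block 5049 probe sets rose, 5994 fell and 4276 differed from KO, and among the genes named by the rule the calls of Ciart, Mmp9 and Apoa1 ended (adjusted p = 0.0521, 0.0525 and 0.0613). Signs turned for Fdft1 (-0.06 as the mean of probe sets, -0.44 with the largest spread), Lss (-0.12 with the largest spread), Ccnd3 (0.19 and 0.70), Clock (0.51) and Slc22a8 (0.72), the last 2 with the largest spread and not called by the probe set that stands for them. The cause was not tested beyond the disagreement of probe sets.

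Of 990 recounts of lists 831 stayed within 1.5 times. Ratios hide signal over background, harvest time was not given, and whole tissue mixes cell types.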

Other observations

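Outside the 4 classes, Tmem37, a calcium channel subunit, read 0.814, 0.706 and 0.827 at baseline and 3.23, 2.37 and 2.96 after infusion, 3.63-fold higher (1.86 ± 0.14, limma, adjusted p = 4.94e-06), with a KO change of 0.14. Sesn2, a stress sensor that restrains mTORC1, rose by 1.13 and Plin4, a lipid droplet coat protein, by 1.37. Cenpj, a centriole protein, fell by 1.58.

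Several of the deepest falls were in genes that male mouse kidney is known to express above female kidney, among them Slco1a1 (-2.19), Slc7a13 (-2.47), Acsm3 (-2.41), Cyp2j13 (-1.60), Odc1 (-1.42) and Cyp4a12a (-1.01). This group was chosen after its values were seen, so it has no test. Kap, a male-biased proximal tubule gene, stood at -0.09 and was not called. Slc7a12, which female kidney expresses more, stood at -0.00 and was not called, with arrays of 0.433, 0.913 and 3.18 after infusion beside 1.27, 1.02 and 0.975 at baseline.

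Probe sets of a gene often disagreed. Of 9010 genes with more than 1 probe set 4433 had a call, and in 269 of these the calls ran in both directions, while in 118 all probe sets rose and in 466 all fell. Rnf180 changed by -1.87 in the probe set that stands for it, and its other probe set rose by 0.35.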
